A study of Caenorhabditis elegans with 12 samples.

Results

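The genes described here encode nicotinic-type acetylcholine receptor subunits and other Cys-loop ligand-gated ion channels of Caenorhabditis elegans. They were chosen by name in the WBcel235 annotation: every acr or lgc gene named by a number, apart from 1 lgc gene left out by the rule, together with unc-29, unc-38, unc-63, lev-1, lev-8, eat-2, deg-3, des-2, mod-1, glc-1, glc-2, glc-3, glc-4, avr-14 and avr-15. Of 91 genes found by name, 78 reached at least 10 counts in 4 or more libraries, out of 46926 genes in the table. All 91 are annotated as protein-coding. The 13 that fell short were all lgc genes, and lgc-16 had no count in any library. Just outside the limit were lgc-29 and lgc-14, each with 3 libraries at 10 counts or more and totals of 73 and 92 counts. Just inside it was lgc-1, with 4 such libraries and a total of 143 counts.

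Poly-A RNA of whole worms, raised at 20 °C and labelled as the fourth larval stage, was sequenced in 12 libraries, 4 per strain. The wild type was the non-transgenic N2 strain. The strain called TDP-43 carried Psnb-1::TDP-43 with the marker Pmyo-2::dsRED, and the strain called TDP-43ΔNLS carried Psnb-1::TDP-43 with the changes K82A, R83A and K84A and the marker Pmyo-3::dsRED. The series title contrasts nuclear with cytoplasmic TDP-43, an RNA-binding protein that forms inclusions in motor neuron disease. The snb-1 promoter drives expression throughout the nervous system, whereas the markers are driven in different tissues, the pharyngeal muscle (myo-2) and the body wall muscle (myo-3). Transgene, marker and strain background came together in each strain and cannot be told apart, and the labels name 1 genotype per strain without saying how many independent lines it represents. Nor do they say whether replicates were separate cultures, so p-values describe the spread between these libraries, which may be technical in part. That spread also holds the differences in library state within strains that are given below.

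Cys-loop channels are pentamers of related subunits whose outer domain binds a transmitter and whose membrane helices form the pore. In the worm, acetylcholine excites body wall muscle through a levamisole-sensitive and a nicotine-sensitive receptor, while glutamate, serotonin, tyramine and dopamine also open channels of this family directly, several of them selective for chloride. Many anthelmintic drugs act on these channels: levamisole opens the muscle acetylcholine receptor and ivermectin opens glutamate-gated chloride channels.

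The libraries differed within groups before any comparison between strains. Totals ranged from 20671982 to 26910097 counts. Mean levels of 12 oocyte and eggshell genes were between 8.5 and 9.79 log2 CPM in 8 libraries, where the adult collagen gene col-19 stood at 1570 to 3310 CPM, which does not match the labelled larval stage. In replicates 3 and 4 of TDP-43ΔNLS the same list was at 1.64 and 4.07 log2 CPM, and in replicate 4 of wild type and replicate 4 of TDP-43 it was at 2.28 and 3.57. Wild type and TDP-43 thus had 1 such library each and TDP-43ΔNLS had 2, so results are also given with a term for this split and without the 4 libraries. Neuron genes (rab-3, unc-64, snt-1, ric-4, unc-10 and unc-13) were detected in every library, at a mean of 6.57 to 6.73 log2 CPM in these 4 libraries and 5.01 to 5.9 in the other 8.

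Levels were compared between genes on a per-length scale, counts per kilobase of exon scaled to the same total in each library (TPM). The highest were not the classical receptor subunits but 4 lgc genes outside the named receptor groups. lgc-34 averaged 54 TPM over the 12 libraries, with a range of 26.6 to 106.6. lgc-22 averaged 53.3 TPM (14.1 to 114.8), lgc-27 averaged 35.2 TPM (5.47 to 86.3) and lgc-21 averaged 31.5 TPM (3.24 to 68.9). These ranges overlap widely, so the order among the 4 is not separated by the spread between libraries. Next came glc-2, a glutamate-gated chloride channel subunit, at 11.4 TPM (6.68 to 15.7), and avr-15, another such subunit, at 11.1 TPM (5.51 to 17.6), and this pair exchanged places when the longest transcript was used as the length. The muscle subunit lev-1 followed at 9.87 TPM. At the other end, lgc-18 averaged 0.301 TPM and acr-6 averaged 0.334 TPM, and each was at 0 in 1 library. Together the 78 genes took 0.0327% to 0.12% of all counts in a library.

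**Figure D1:**
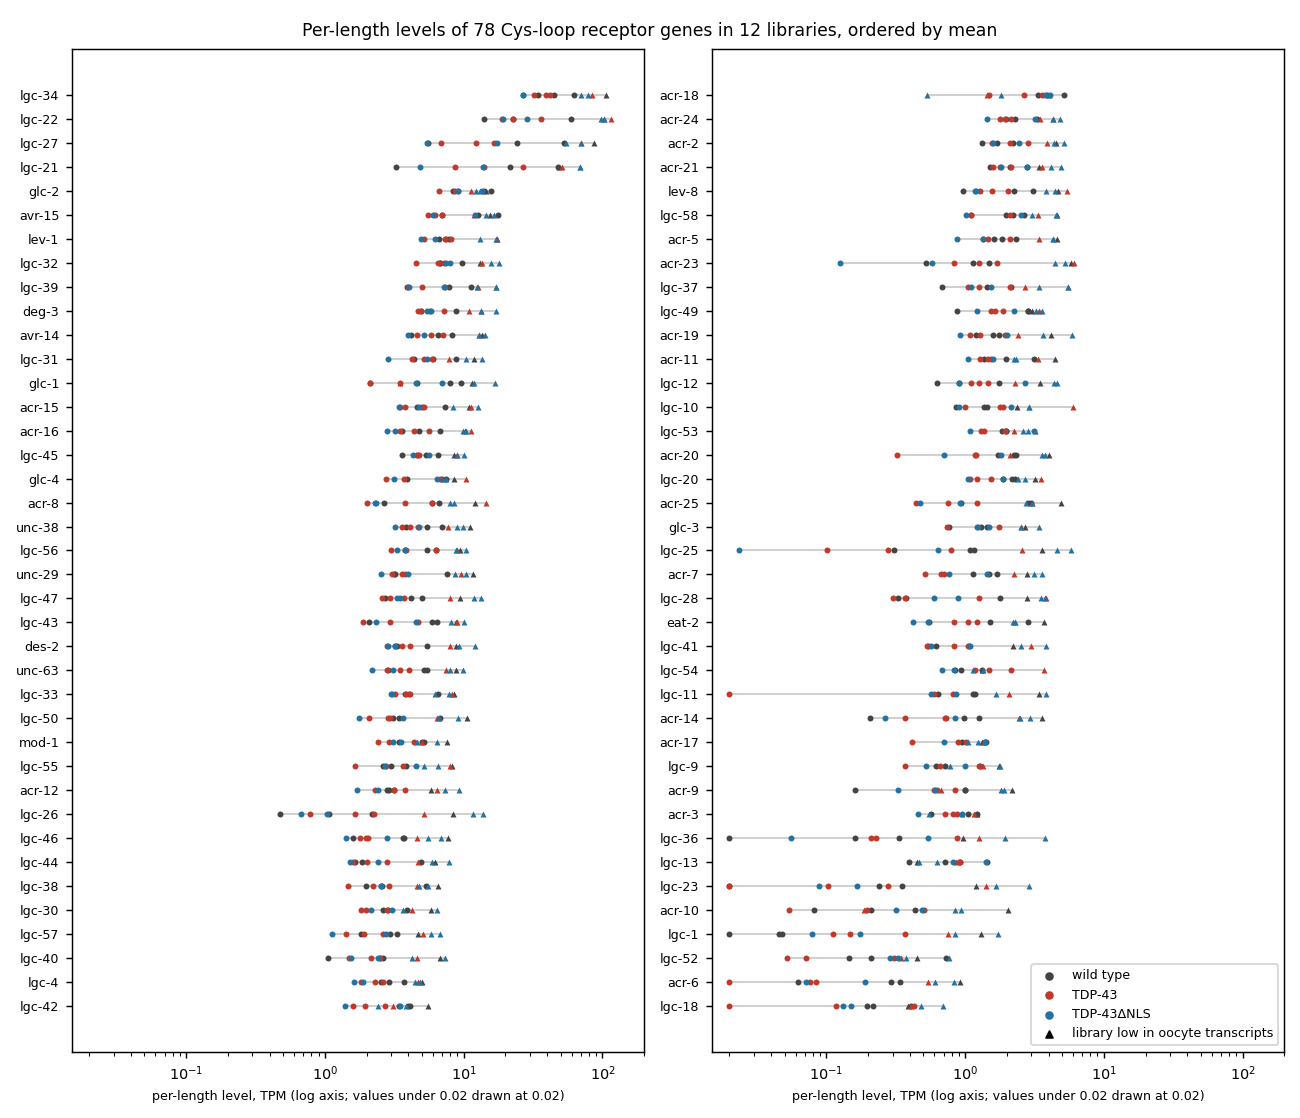
Per-length level (TPM, log axis) of each of the 78 genes in each of the 12 libraries, ordered by mean; colour gives the strain, and triangles mark the 4 libraries low in oocyte transcripts. lgc-34, lgc-22, lgc-27 and lgc-21 head the order, and the triangles lie at the right end of most rows.

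Of the 78 genes, 0 passed an adjusted p of 0.05 in any of the 3 comparisons between strains with edgeR's quasi-likelihood test, which called 0.00601% of 16637 genes tested for TDP-43 against wild type, 0% for TDP-43ΔNLS against wild type and 0% for TDP-43ΔNLS against TDP-43. The lowest adjusted p of any member was 0.9999 in each comparison with wild type and 0.9984 between the transgenic strains, so that the log2 fold changes ± SE given below without a p did not pass in edgeR. At an unadjusted p under 0.05 the member counts were 2, 0 and 2, or 2.56%, 0% and 2.56% of the members, against 1.83%, 1.45% and 2.57% of all genes tested. Same-numbered libraries of wild type and TDP-43 deviated together. In both strains, however, replicate 4 is the library low in oocyte transcripts, and wild type replicate 3 deviated most like TDP-43 replicate 2. With the replicate number as a block that comparison again gave 0 members called, with 66 of 78 negative. The call over all genes fell from 1 to 0. Fitted to these strains alone the block gave 0 members and 22 genes in all. With the split term, again 0 members passed, where 0.0962%, 0.0541% and 0.00601% of all genes were called. In that fit 8, 5 and 5 members had an unadjusted p under 0.05, or 10.3%, 6.41% and 6.41%, beside a background of 6.28%, 5.2% and 4.41%. Limma voom called 0 members in each comparison and the DESeq2 Wald test called 0, 0 and 1. DESeq2 also called more of the 16637 genes than edgeR did in each comparison, with the counts given in the last section. The 1 member called by DESeq2 was glc-1, also the only member whose libraries did not overlap between strains. It made up 1.28% of the members, close to the shares of all genes without overlap in the same direction. Those shares were 1.11% for TDP-43 against wild type and 1.04% for TDP-43ΔNLS against TDP-43.

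glc-1 (WBGene00001591, V:16219634-16221917 in WBcel235) encodes an ivermectin-sensitive subunit of glutamate-gated chloride channels. In wild type it stood at 12.2, 10.5, 7.17 and 14.9 CPM in replicates 1 to 4. In TDP-43 it stood at 4.71, 3.09, 2.84 and 5.51 CPM, and in TDP-43ΔNLS at 9.36, 7.20, 15.4 and 22.8 CPM. Every TDP-43 library was below every library of both other strains, while wild type and TDP-43ΔNLS overlapped. Group means were 11.2 ± 3.25, 4.04 ± 1.28 and 13.7 ± 6.98 CPM (SD, n = 4 each).

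The log2 fold change of glc-1 for TDP-43 against wild type was -1.47 ± 0.42 (SE; adjusted p = 0.9999 over all genes in edgeR). No other member had as low an unadjusted p in that comparison. With the split term it was -1.48 ± 0.28 (edgeR adjusted p = 0.1145), and over all alternative fits the value lay between -1.66 and -1.31, with adjusted p from 0.113 to 1. For TDP-43ΔNLS against TDP-43 it was 1.76 ± 0.43 (adjusted p = 0.9984 in edgeR), again the lowest unadjusted p among the members, with a range of 1.22 to 1.97 over the alternatives. There DESeq2 gave 1.71 ± 0.385 with an adjusted p of 0.0193. The direction was the same in every fit run, which adds little, since the TDP-43 libraries lay below all others to begin with. The threshold was passed in that 1 fit only. Both comparisons share the TDP-43 libraries. A lower first group without overlap was seen in 1.11% of all genes for TDP-43 against wild type and a higher one in 0.541%. For TDP-43ΔNLS against TDP-43 these shares were 0.733% lower and 1.04% higher, and for TDP-43ΔNLS against wild type 0.854% and 0.469%, where 0 members qualified either way.

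Markers of pharyngeal muscle (myo-1, myo-2, tni-4 and tnc-2) moved with glc-1 in part. Their mean was 8.03, 7.8, 7.33 and 8.58 log2 CPM in the wild type libraries, 5.99, 6.73, 6.88 and 8.18 in those of TDP-43 and 7.67, 6.87, 8.06 and 7.76 in those of TDP-43ΔNLS. The median log2 fold change of the 4 genes was -0.84 for TDP-43 against wild type, with 4 of 4 negative and 0 called. With the split term it was -0.98, with 4 of 4 at an unadjusted p under 0.05 in edgeR and 0 called, beside 6.28% of all genes under that p. The TDP-43 libraries overlapped both other strains, though replicates 1 to 3 lay below all wild type libraries and replicate 4 within their range. The 6 neuron genes were also 6 of 6 negative in that comparison, with a median of -0.27. The part of either in the glc-1 result was not tested, and in whole worms fewer cells of a type and less RNA per cell cannot be told apart. The TDP-43 strain also carries Pmyo-2::dsRED in pharyngeal muscle, and the part of this marker in the list cannot be told apart from that of Psnb-1::TDP-43.

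glc-2 encodes the partner subunit in the first ivermectin receptor cloned from the worm. The per-length ratio of glc-1 to glc-2 was lowest in TDP-43, but it reuses the glc-1 values and is no separate result. It was 0.684, 0.504, 0.548 and 0.787 in the wild type libraries, 0.383, 0.242, 0.317 and 0.307 in those of TDP-43 and 0.512, 0.499, 0.906 and 1.36 in those of TDP-43ΔNLS. No TDP-43 library reached the lowest ratio of the other strains. For glc-1 to avr-15 the ratio was 0.556, 0.38, 0.302 and 0.292 in TDP-43 and 0.543 to 0.731 in wild type, so that 1 TDP-43 library lay within the wild type range.

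Genes beside glc-1 on chromosome V were examined for the same difference. Within 50000 bp on either side, 19 other genes were tested. At an unadjusted p under 0.05 in edgeR there were 0 of them for TDP-43 against wild type, 0 for TDP-43ΔNLS against wild type and 1, F21H7.12, for TDP-43ΔNLS against TDP-43. With the split term the counts were 1, 0 and 1. In both cases this was F11A5.9 (V:16214890-16217706, mean 23.9 CPM), at log2 fold changes of -0.61 for TDP-43 against wild type and 0.44 for TDP-43ΔNLS against TDP-43, the directions of glc-1, with overlap between the strains. F11A5.17, at a mean of 0.325 CPM, was the single neighbour without overlap between TDP-43 and wild type, at a log2 fold change of -1.70.

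**Figure D2:**
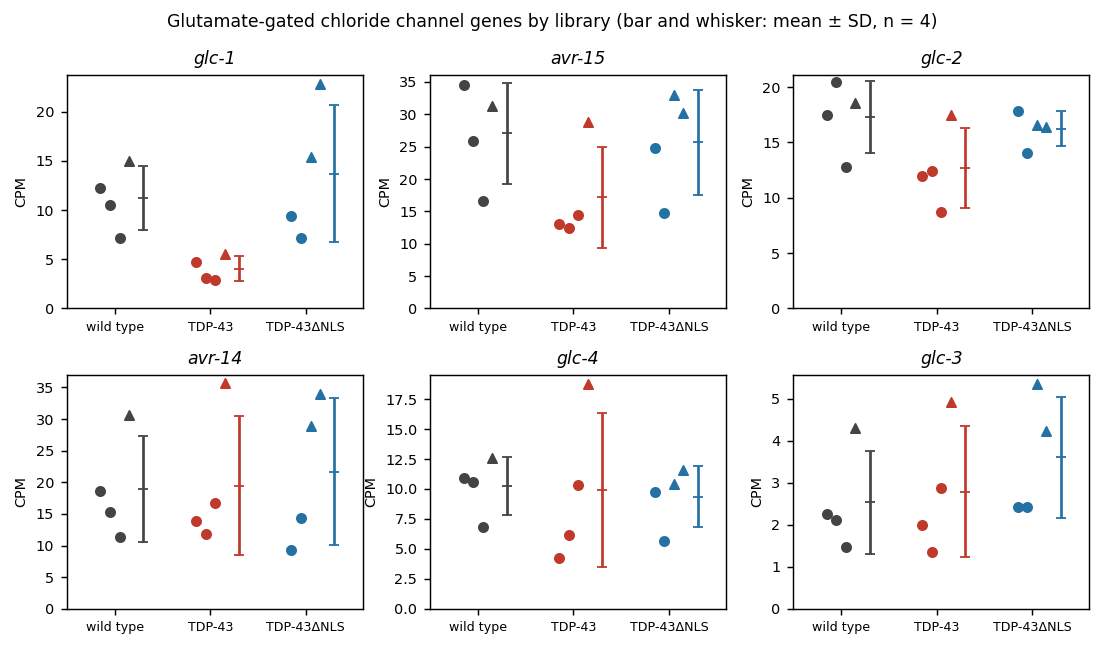
CPM of the 6 glutamate-gated chloride channel genes in each library, with the mean ± SD of 4 libraries per strain beside the points; triangles mark the libraries low in oocyte transcripts. For glc-1 the 4 TDP-43 libraries lie between 2.84 and 5.51 CPM, below all 8 others, while the strains overlap for the other 5 genes.

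The other glutamate-gated chloride channel genes overlapped between strains. avr-15, which is needed for glutamate transmission to pharyngeal muscle, stood at 34.5, 25.8, 16.6 and 31.3 CPM in the wild type libraries, 13, 12.5, 14.4 and 28.9 in those of TDP-43 and 24.7, 14.7, 33.0 and 30.2 in those of TDP-43ΔNLS. In TDP-43 the first 3 replicates were below all wild type libraries and replicate 4 was within their range. The log2 fold change was -0.66 ± 0.38, and with the split term -0.74 ± 0.26 (adjusted p = 0.6566 in edgeR). glc-2 stood at 17.4, 20.4, 12.8 and 18.5 CPM in the wild type libraries and 12, 12.5, 8.75 and 17.5 in those of TDP-43, with a log2 fold change of -0.45 ± 0.28. Here too replicate 4 of TDP-43 was the library within the wild type range. avr-14, an ivermectin-sensitive subunit of neurons, had means of 18.96 ± 8.36, 19.5 ± 10.9 and 21.7 ± 11.7 CPM (SD, n = 4) in wild type, TDP-43 and TDP-43ΔNLS. glc-3 had means of 2.53 ± 1.23, 2.79 ± 1.56 and 3.61 ± 1.45 CPM and glc-4 of 10.2 ± 2.42, 9.89 ± 6.44 and 9.36 ± 2.57 CPM in the same order. For avr-14, glc-3 and glc-4 the strain means differed by less than the SD of the libraries.

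The levamisole receptor of body wall muscle is built from UNC-29, UNC-38, UNC-63, LEV-1 and LEV-8, and none of its 5 genes had an unadjusted p under 0.05 in any comparison in edgeR. unc-38, an alpha subunit, stood at 9.71, 7.85, 6.49 and 15.9 CPM in the wild type libraries, 6.84, 5.74, 6.01 and 13.2 in those of TDP-43 and 6.93, 5.56, 13.8 and 13.3 in those of TDP-43ΔNLS. unc-29, a non-alpha subunit needed for the receptor to function, averaged 8.90 ± 5.29, 7.73 ± 5.43 and 9.07 ± 5.02 CPM (SD, n = 4). unc-63 averaged 7.81 ± 3.10, 6.86 ± 3.78 and 8.33 ± 4.98 CPM. In each of these genes the strain means lay closer together than the libraries of a single strain, whose highest values came from the libraries low in oocyte transcripts. lev-1 averaged 16.1 ± 7.66, 17.2 ± 11.3 and 17.1 ± 8.6 CPM, and lev-8, which is the least expressed of the 5 genes, averaged 4.06 ± 2.15, 4.30 ± 3.58 and 4.05 ± 2.45 CPM.

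The levamisole receptor genes were set against unc-38 within each library. On the per-length scale, unc-29 was 0.594 to 1.25 times unc-38 over the 12 libraries, with a median of 0.866. unc-63 was 0.462 to 1.01 times unc-38, with a median of 0.857. lev-1 was above unc-38 in every library, at 1.12 to 2.28 times, and lev-8 was below it in every library, at 0.247 to 0.706 times. acr-16, whose product forms the nicotine-sensitive receptor of the same muscle, was 0.672 to 1.47 times unc-38. acr-16 averaged 9.98 ± 4.17 CPM in the wild type libraries, 10.8 ± 6.99 in those of TDP-43 and 10.5 ± 6.22 in those of TDP-43ΔNLS (SD, n = 4). Body wall muscle markers, 6 genes, had median log2 fold changes of 0.14 for TDP-43 against wild type and -0.34 for TDP-43ΔNLS against wild type. In edgeR 0 were called, and 0 and 3 had an unadjusted p under 0.05. TDP-43ΔNLS carries Pmyo-3::dsRED in this muscle, and the part of that marker cannot be told apart.

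**Figure D3:**
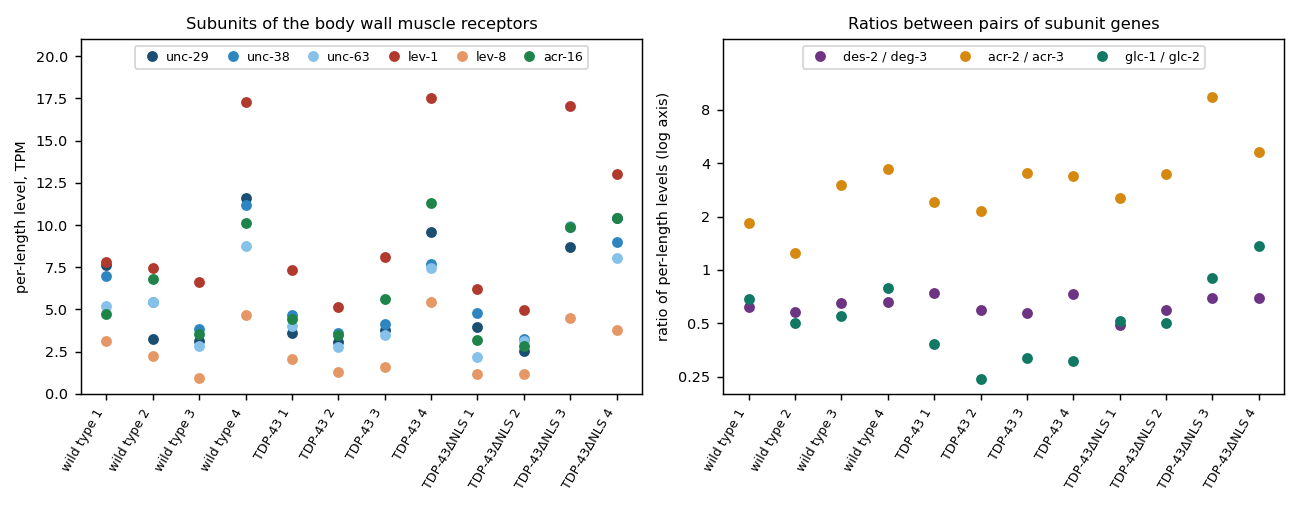
Left, per-length level (TPM) of the 5 levamisole receptor genes and acr-16 in each library; right, ratio of per-length levels (log axis) for 3 gene pairs. lev-1 lies above and lev-8 below the other levamisole receptor genes, des-2 to deg-3 stays between 0.489 and 0.738, and glc-1 to glc-2 is lowest in the 4 TDP-43 libraries.

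The receptor of cholinergic motor neurons includes ACR-2, ACR-3 and ACR-12. acr-2, whose gain-of-function allele causes convulsions, stood at 3.73, 2.32, 3.51 and 7.83 CPM in the wild type libraries, 3.77, 3.01, 5.03 and 8.20 in those of TDP-43 and 4.31, 3.31, 8.81 and 7.83 in those of TDP-43ΔNLS. Its neighbour acr-3, which starts 229 bp downstream on the same strand of chromosome X, stood at 1.66, 1.51, 0.942 and 1.72 CPM in the wild type libraries, 1.27, 1.14, 1.17 and 1.98 in those of TDP-43 and 1.37, 0.777, 0.761 and 1.38 in those of TDP-43ΔNLS. The strains overlapped for both genes. Their proportion varied, since the per-length ratio of acr-2 to acr-3 ran from 1.25 to 9.43 with a coefficient of variation of 60.9%. The log2 fold change of acr-3 for TDP-43ΔNLS against wild type was -0.44 ± 0.42. acr-12, a subunit present in both cholinergic and GABA motor neurons, was 0.98 to 2.2 times acr-2 on the per-length scale.

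The DEG-3 group includes deg-3 and des-2, which together form a choline-sensitive channel of sensory neurons and lie 112 bp apart on chromosome V. A mutation in deg-3 that keeps this channel open kills neurons. deg-3 stood at 14, 9.44, 9.52 and 21.7 CPM in the wild type libraries, 8.23, 8.63, 12 and 21.6 in those of TDP-43 and 9.68, 10.7, 27.6 and 22.4 in those of TDP-43ΔNLS. The strains overlapped, and des-2 followed deg-3 closely, at 0.489 to 0.738 times its per-length level with a coefficient of variation of 11.7%. acr-23, the betaine receptor on which the anthelmintic monepantel acts, stood at 1.71, 2.28, 0.942 and 8.76 CPM in the wild type libraries, 2.66, 1.43, 1.97 and 11.2 in those of TDP-43 and 0.196, 1.06, 6.73 and 8.24 in those of TDP-43ΔNLS. Its 4 high values were those of the libraries low in oocyte transcripts. For acr-20, of the same group, the log2 fold change for TDP-43 against wild type was -0.99 ± 0.60 and for TDP-43ΔNLS against TDP-43 0.92 ± 0.60. acr-18 was lower in both strains than in wild type, by log2 fold changes of -0.77 ± 0.58 and -0.61 ± 0.58, and the latter was 0.03 without the 4 libraries low in oocyte transcripts.

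In the ACR-16 group other than acr-16, 10 of 10 genes had negative log2 fold changes for TDP-43 against wild type, with a median of -0.44 and 0 called in edgeR. The background was 48.1% negative over all genes tested, with a median of 0.02. The 6 neuron genes were also 6 of 6 negative, with a median of -0.27, and their part was not tested. Without wild type replicate 4, 4 of the 10 genes were negative with a median of 0.03, and 2 of the 6 neuron genes with a median of 0.04. That fit keeps TDP-43 replicate 4, which is low in oocyte transcripts. With the split term 10 of the 10 genes were negative, with a median of -0.396. Leaving out all 4 libraries low in oocyte transcripts gave 8 of 10 and -0.377. The neuron genes were 6 of 6 negative in both fits. eat-2, which mediates fast transmission to pharyngeal muscle and sets the rate of feeding, stood at 3.77, 2.08, 0.889 and 5.06 CPM in the wild type libraries, 1.47, 1.87, 1.17 and 3.79 in those of TDP-43 and 0.588, 0.900, 3.08 and 3.13 in those of TDP-43ΔNLS. Its strains overlapped. The log2 fold change for TDP-43ΔNLS against wild type was -0.62 ± 0.68, and with the split term it was -1.22 ± 0.46 (adjusted p = 0.8106 in edgeR). The pharyngeal muscle markers had a median log2 fold change of -0.36 in that comparison, and -0.57 with the split term, and their part in the eat-2 value was not tested. For acr-7 the log2 fold change for TDP-43ΔNLS against TDP-43 was 0.96 ± 0.62. acr-25 and acr-11 were lower in TDP-43ΔNLS than in wild type, by log2 fold changes of -0.67 ± 0.73 and -0.56 ± 0.47, and acr-21 was higher by 0.49 ± 0.42. With the split term the value of acr-25 was -1.35 ± 0.43 (adjusted p = 0.5747 in edgeR). acr-8, a relative of the levamisole receptor genes outside this group that forms part of that receptor in Haemonchus contortus, had a log2 fold change of -0.45 ± 0.68 for TDP-43ΔNLS against TDP-43, which was 0.42 without TDP-43 replicate 4.

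Among amine-gated channels, 6 of 6 genes were negative for TDP-43 against wild type, with a median log2 fold change of -0.31 and 0 called in edgeR, beside 48.1% of all genes tested and 6 of 6 neuron genes. Without wild type replicate 4, 3 of the 6 amine-gated channel genes were negative and the median was -0.03. With the split term 6 of 6 were negative, with a median of -0.341. Leaving out all 4 libraries low in oocyte transcripts gave 5 of 6 and -0.363. mod-1, a serotonin-gated chloride channel, stood at 7.51, 7.61, 6.02 and 11.2 CPM in the wild type libraries, 4.46, 4.07, 6.63 and 9.09 in those of TDP-43 and 5.41, 5.61, 6.73 and 10.03 in those of TDP-43ΔNLS. lgc-50, a serotonin-gated cation channel, averaged 11.3 ± 6.15, 7.53 ± 4.69 and 10.2 ± 5.74 CPM (SD, n = 4), and lgc-55, a tyramine-gated chloride channel of the escape response, averaged 6.72 ± 3.66, 6.68 ± 5.16 and 7.31 ± 2.12 CPM. All 3 overlapped between strains. The 3 members among acetylcholine-gated anion channels were likewise all negative for TDP-43 against wild type, with a median of -0.16. Without wild type replicate 4 only 1 was, with a median of 0.08. All 3 were negative with the split term (median -0.246) and without the 4 libraries low in oocyte transcripts (median -0.312). Of these, lgc-46 averaged 6.90 ± 4.02, 4.79 ± 2.90 and 6.96 ± 3.85 CPM.

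The remaining lgc genes held lgc-54, the only other member with an unadjusted p under 0.05 in the fit without the split term. It (WBGene00020528, V:6840217-6846607) stood at 1.21, 1.14, 2.09 and 1.76 CPM in the wild type libraries, 2.05, 3.18, 1.60 and 5.93 in those of TDP-43 and 1.14, 1.10, 1.76 and 1.58 in those of TDP-43ΔNLS. TDP-43 had the 2 highest values and overlapped both other strains. Its log2 fold change was 1.04 ± 0.47 for TDP-43 against wild type (adjusted p = 0.9999 in edgeR) and -1.19 ± 0.47 for TDP-43ΔNLS against TDP-43 (adjusted p = 0.9984 in edgeR). Exons of T15B7.1 on the opposite strand cover 9.44% of the exon length of lgc-54, and the strand setting of the counting is not given, so reads of the pair may have been mixed. lgc-42 stood at 4.22, 3.70, 5.02 and 5.85 CPM in the wild type libraries, 1.76, 2.32, 2.95 and 3.95 in those of TDP-43 and 3.80, 1.80, 2.52 and 4.22 in those of TDP-43ΔNLS. The wild type libraries were mostly above both transgenic strains, with log2 fold changes of -0.77 ± 0.39 for TDP-43 and -0.61 ± 0.39 for TDP-43ΔNLS, which share the wild type libraries.

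lgc-34, one of the 4 members with the highest per-length levels, stood at 72.8, 54.5, 48.9 and 128 CPM in the wild type libraries, 48.6, 43.5, 51.1 and 123 in those of TDP-43 and 32.6, 39, 93.7 and 87.7 in those of TDP-43ΔNLS. Within the 8 libraries rich in oocyte transcripts, both TDP-43ΔNLS values lay below all others. With the split term its log2 fold change for TDP-43ΔNLS against wild type was -0.64 ± 0.16 (adjusted p = 0.2828 in edgeR), against -0.26 ± 0.47 in the fit without that term. lgc-36 and lgc-12 were higher in TDP-43ΔNLS than in wild type, by log2 fold changes of 2.10 ± 1.24 and 0.90 ± 0.60. lgc-36 was at or under 0.449 CPM in 3 wild type libraries and at 0.0784 CPM in 1 library of TDP-43ΔNLS, so its fold change rests on few reads. Its highest TDP-43ΔNLS values, 5.16 and 2.76 CPM, were those of replicates 3 and 4, which are low in oocyte transcripts. With the split term the log2 fold change of lgc-36 was 1.35 ± 0.89. lgc-10 was higher in TDP-43 than in wild type by 0.97 ± 0.60, where replicate 4 of TDP-43, at 9.21 CPM, exceeded the other 11 libraries.

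Over all 78 genes the median log2 fold change was -0.19 for TDP-43 against wild type, with 59 negative, and 0.02 over all genes tested. Without wild type replicate 4 the median was 0.15, and without TDP-43 replicate 4 it was -0.69. Each of these fits leaves a library low in oocyte transcripts in only 1 of the 2 strains. With the split term the median was -0.256, with 64 negative. Leaving out all 4 libraries low in oocyte transcripts gave -0.319, with 61 of 76 members negative. For TDP-43ΔNLS against wild type the median was 0.11, with 26 negative, and with the split term -0.29, with 61 negative. The sign of that median therefore turned when the libraries low in oocyte transcripts, 2 in TDP-43ΔNLS and 1 in wild type, were given a term of their own. Leaving out single libraries also turned it, to -0.07 without wild type replicate 3, -0.12 without TDP-43ΔNLS replicate 3 and -0.10 without TDP-43ΔNLS replicate 4. For TDP-43ΔNLS against TDP-43 the median was 0.37, with 14 negative, and with the split term 0.03, with 34 negative. The 6 neuron genes had medians of 0.14 and, with the split term, -0.24 for TDP-43ΔNLS against wild type, and their part in the members' medians was not tested.

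**Figure D4:**
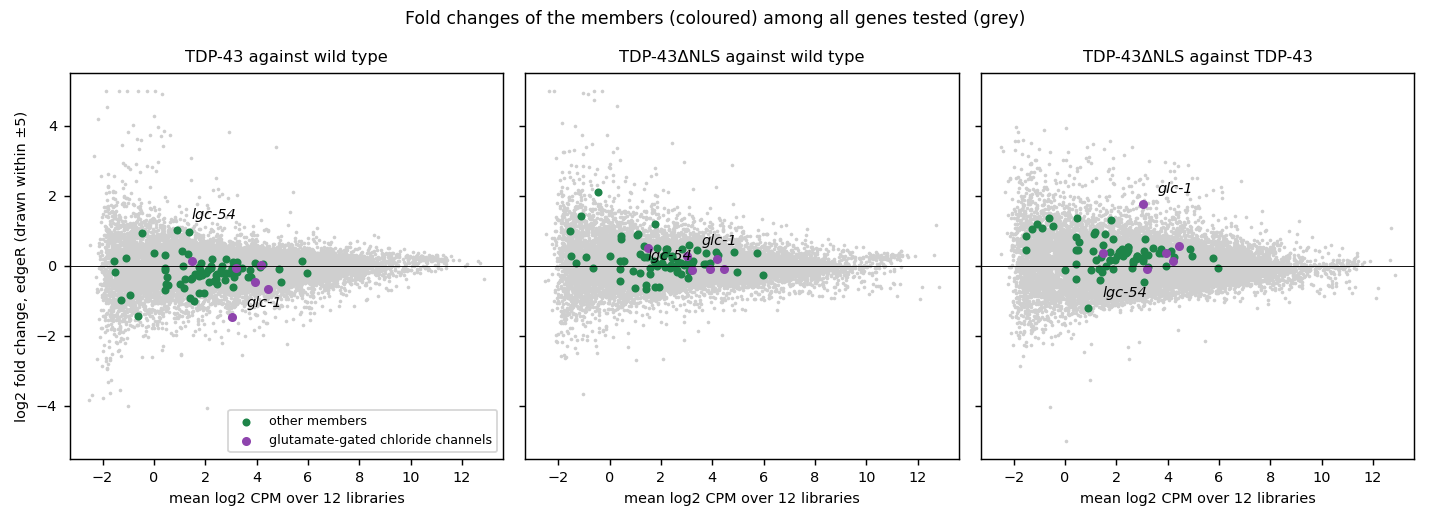
Log2 fold change in edgeR (drawn within ±5) against mean log2 CPM for the 3 comparisons; grey points are all 16637 genes tested, green points members and violet points glutamate-gated chloride channel genes. glc-1 lies at -1.47 in the left panel and 1.76 in the right, and most members lie within the grey cloud around 0.

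The members varied most with the state of the library. In the 4 libraries low in oocyte transcripts, 57 of 78 genes (73.1%) were higher than in all 8 others, against 22.3% of all genes tested, and 0 were lower than in all 8 others, against 24.6%. The median ratio of the 2 sets of libraries was 2.42 over the members and 1.13 over all genes tested. Because the libraries were divided by expression, these values are a description without a test. All 5 levamisole receptor genes, acr-16 and the 3 acetylcholine-gated anion channel genes were among the 57, as were 6 of 8 genes in the DEG-3 group and 27 of 34 remaining lgc genes. The glutamate-gated chloride channel genes were split, with 2 of 6 above and the other 4 overlapping.

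Of the 57 genes, 4 (lgc-23, lgc-1, acr-6 and lgc-36) had at least 10 counts in fewer than 4 of the other 8 libraries, so they met the count rule only through the libraries where they are high, and their place among the 57 was favoured by that rule. The largest ratio was that of lgc-23, at 12.4, which stood at 0 to 0.407 CPM in the 8 libraries and 1.36 to 3.28 CPM in the 4. lgc-26 had a ratio of 9.57, from 0.785 to 3.24 CPM against 8.83 to 18.9 CPM, and acr-23 a ratio of 5.43. acr-18 had the smallest, at 0.447, with 2.09 to 6.92 CPM in the 8 libraries and 0.721 to 5.46 CPM in the 4. lgc-13 was the only other member with a ratio under 1, at 0.59.

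The neuron genes were also higher in the 4 libraries, and members were therefore set against them within each library. Relative to the mean log2 CPM of the 6 neuron genes, 68 of the 78 members overlapped between the libraries. lgc-23, lgc-26, lgc-25 and acr-14 remained above in all 4 libraries, and mod-1, lgc-53, acr-3, glc-2, lgc-13 and acr-18 were below. Of these, lgc-23 had at least 10 counts in only 1 of the other 8 libraries. It met the count rule only through the 4 libraries, so its place here was favoured by that rule. For lgc-26 the difference from the neuron mean was -3.44 to -2.47 log2 units in the 4 libraries and -5.70 to -3.81 in the 8. For glc-2 it was -2.67 to -2.45 in the 4 libraries and -2.40 to -1.26 in the 8.

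**Figure D5:**
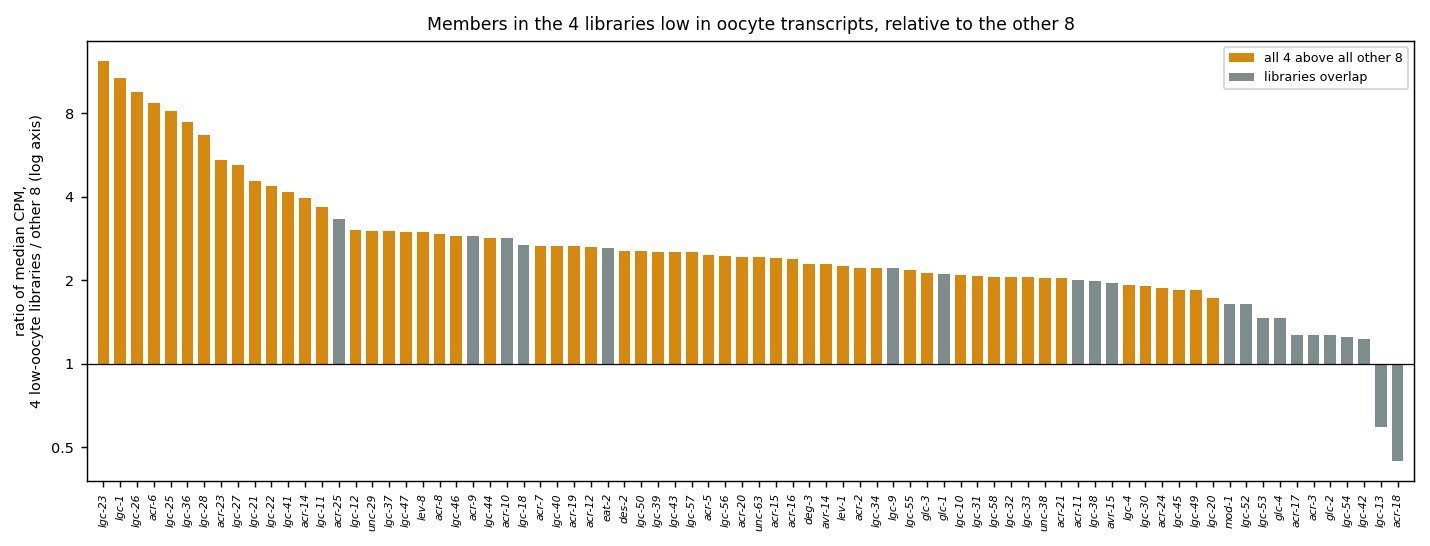
Ratio (log axis) of each member's median CPM in the 4 libraries low in oocyte transcripts to its median in the other 8; orange bars are the 57 genes whose 4 values all exceed the other 8, grey bars the 21 genes whose values overlap. Ratios run from 12.4 for lgc-23, which met the count rule only through the 4 libraries, to 0.447 for acr-18.

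By position, 20 members (25.6%) lie on chromosome X and 20 on chromosome V, beside 14.5% and 20.9% of all genes tested. Chromosome I holds 8 members (10.3%), beside 15.7% of all genes tested. Within 10000 bp of each other lie acr-2 and acr-3, deg-3 and des-2, acr-15 and acr-16, lgc-10 and acr-25, and glc-2 and unc-38.

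Genes that supply, organize or assemble these receptors gave 0 calls in edgeR as well. Of 7 genes of acetylcholine supply and breakdown, 7 were negative for TDP-43 against wild type, with a median log2 fold change of -0.42. Without wild type replicate 4, 5 of them were negative and the median was -0.18. All 7 were negative with the split term (median -0.405) and without the 4 libraries low in oocyte transcripts (median -0.604). ace-4, an acetylcholinesterase gene, stood at 2.34, 1.83, 2.51 and 6.46 CPM in the wild type libraries and 0.983, 0.814, 2.04 and 1.47 in those of TDP-43, with a log2 fold change of -1.31 ± 0.55, the 1 gene of the list with an unadjusted p under 0.05 in edgeR in the fit without the split term. With that term there were 3 of the 7, ace-4, ace-1 and cho-1. cho-1, the choline transporter that refills cholinergic terminals, stood at 16.4, 16.8, 11.5 and 24.4 CPM in the wild type libraries and 7.70, 6.48, 11.4 and 20.9 in those of TDP-43, with a log2 fold change of -0.57 ± 0.45. Both genes overlapped between these strains. The 3 cholinergic neuron markers, unc-17, cha-1 and cho-1, all belong to this list and are no separate result.

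Of 9 genes of receptor clustering and accessory proteins, 6 were negative for TDP-43 against wild type and 4 for TDP-43ΔNLS against wild type, with medians of -0.23 and 0.00. rsu-1 stood at 87.2, 87.1, 80.0 and 107.7 CPM in the wild type libraries, 83.2, 85.6, 81.3 and 173.3 in those of TDP-43 and 50.4, 67.0, 77.1 and 83.7 in those of TDP-43ΔNLS. Its log2 fold change for TDP-43ΔNLS against TDP-43 was -0.61 ± 0.29, and with the split term -0.71 ± 0.16 (adjusted p = 0.484 in edgeR). oig-4, which helps to hold levamisole receptors at the synapse, had a log2 fold change of -0.57 ± 0.55 for TDP-43 against wild type. The 6 genes of receptor assembly and export had medians of 0.10 and -0.06 against wild type, and the 3 muscarinic receptors, which signal through G proteins, had medians of -0.37 and 0.03. Of 10 Cys-loop genes outside the naming rule, 8 were negative for TDP-43 and 6 for TDP-43ΔNLS against wild type. Among these, unc-49, the GABA receptor of body wall muscle, stood at 103.4, 63.5, 47.1 and 141.4 CPM in the wild type libraries and 50.3, 43.4, 52.9 and 106.3 in those of TDP-43, with a log2 fold change of -0.49 ± 0.49.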

How the data were processed

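The authors deposited raw read counts per gene in 1 table, made on the build WBcel235 with R 4.4.2, featureCounts 2.20.0 and STAR among the tools, per the submitters' processing notes. The annotation, strand setting and handling of multiply mapped reads behind the counts were not given in the sources used here. Names and coordinates came from Ensembl release 115, in which all 46926 identifiers were found.

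Counts were tested in R 4.3.3 with edgeR 4.0.16 (TMM, filterByExpr with a minimum count of 10, robust quasi-likelihood fit over all 12 libraries, Benjamini-Hochberg adjustment over 16637 genes, threshold 0.05). The split term separates libraries under 6 mean log2 CPM in the oocyte and eggshell list. CPM values are TMM-scaled. Alternatives used other scalings and filters, DESeq2 1.42.0, limma 3.58.1, other designs and left-out libraries. The scripts were tested on simulated data. Deviations of same-numbered libraries from their group means correlated at 0.229 to 0.825 between wild type and TDP-43, so the numbers were taken to pair these strains. The highest value was that of replicate 4, low in oocyte transcripts in both strains, and wild type replicate 3 correlated best with TDP-43 replicate 2. These values therefore cannot tell a pairing from the shared state of replicate 4. In the comparisons with TDP-43ΔNLS the correlations ran from -0.629 to 0.754, and the numbers were not taken as pairs. The pairing comes from these data, not from the labels. No 2 libraries of a group agreed within sampling noise (chi-square per gene at least 33.3).

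Members, lists and tests were chosen with earlier results of these data known. Named genes were the 5 with the lowest p per direction and comparison, subunits with established roles, the 5 highest in level, and up to 2 per further list.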

Additional observations from a re-analysis of the deposited data

Results flagged for a closer look

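In 126 sets of 4 replicates, taken from 42 named members in 3 strains, 1 library stood apart from the other 3 in 19, by a gap over 0.829 of the range of the set. For independent, normally distributed values chance alone gives about 1 in 20. The sets share the same 12 libraries, so a single library recurs over many genes and the 19 cannot be set against that rate. Every such library was replicate 4 of wild type or of TDP-43, and every value was high. These libraries are also low in oocyte transcripts.

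In wild type replicate 4 the values were 6.32 CPM for acr-20, 8.76 for acr-23 and 27.6 for lev-1. In TDP-43 replicate 4, lgc-22 stood at 173 CPM, lgc-34 at 123 and lgc-27 at 108. Among muscle receptor genes of that library, lev-1 stood at 34 CPM, unc-29 at 15.9, unc-38 at 13.2 and lev-8 at 9.63. Its acetylcholine receptor genes of other groups stood at 32.9 CPM for des-2, 11.2 for acr-23, 5.05 for acr-11, 4 for acr-7 and 1.98 for acr-3. The remaining values there were 28.9 CPM for avr-15, 14.5 for lgc-50, 9.13 for lgc-46 and 5.89 for lgc-41. TDP-43ΔNLS, with 2 libraries low in oocyte transcripts, gave no such value.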

How the results depend on the processing

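Over all genes, 1 was called for TDP-43 against wild type. The count was 0 with upper-quartile scaling, a filter of 10 CPM in 4 libraries or the replicate block, 21 with DESeq2, 16 with the split term, 9 without the 4 libraries low in oocyte transcripts and 0 to 1 with single libraries left out. For TDP-43ΔNLS against wild type, 0 genes became 16, 9 and 6 under DESeq2, the split term and without the 4 libraries. For TDP-43ΔNLS against TDP-43, 0 became 8 with DESeq2 and 1 with the split term. Members called changed under 1 setting, DESeq2, to 1 of 78 for TDP-43ΔNLS against TDP-43, beside 8 of 16637 genes tested. The causes were not tested. Of 646 recomputed log2 fold changes of named members, 639 kept direction and side of the threshold, 1 passed it and 6 turned. These were the members with the lowest p per direction in the same data, and 0 of them passed at the start. Keeping direction and side was therefore favoured by the choice. Some fits also left out only a library outside the comparison. Without the 4 libraries, TDP-43ΔNLS against wild type was 0.0264 for acr-18 and -0.386 for lgc-26. With single libraries left out, lgc-41 ranged from -0.424 to 0.987 for TDP-43 against wild type, and for TDP-43ΔNLS against TDP-43 lgc-10 ranged from -0.702 to 0.463, acr-8 from -0.78 to 0.417 and acr-11 from -0.336 to 0.317. In all 4 the turn came without TDP-43 replicate 4. The replicate block over all strains gave 0 calls in each comparison. Fitted to wild type and TDP-43 alone, an alternative chosen after seeing the data, it gave 22 genes and changed no call of a member. The labels give only a number shared between the libraries of the strains. The stricter filter left 27 members. Depth limits genes such as lgc-18 and acr-6, each with 0 counts in 1 library.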
